A study of Mus musculus with 7 samples.

Results

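The 8 genes Glul, Cyp2e1, Oat, Axin2, Lgr5, Tbx3, Rhbg and Slc1a2 were examined as genes of the pericentral liver zone and of Wnt signalling. They were taken by name, out of 22367 protein-coding genes of the annotation, and a hotspot was counted for a gene when it overlapped the gene body or the 20 kb on either side. The windows together spanned 718 kb of mm9 and held 33 of 60910 Benzonase hotspots, 32 of 57675 Cyanase hotspots and 53 of 72286 DNase I hotspots. A hotspot is a stretch of the genome in which the ends of nuclease-released fragments cluster above background, and its presence, bounds and width were the values at hand.

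All libraries came from livers of male C57BL/6 mice aged 8 weeks. Benzonase and Cyanase, endonucleases that remain active in detergent, were applied to intact frozen tissue that had been pulverized, in 3 samples each (0.25, 1 and 4 U), whereas DNase I was applied to nuclei from fresh tissue (1 sample in the labels). The nuclease, the frozen or fresh state and the use of nuclei therefore changed together and cannot be told apart. The authors pooled the tags of each nuclease before calling, so each nuclease gave 1 list with no spread between replicates, no test was possible, and every difference below is one between these lists.

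Hepatocytes differ along the line from the portal vein to the central vein. Wnt ligands and R-spondins released by endothelial cells of the central vein act on Frizzled and Lrp receptors of nearby hepatocytes, and R-spondins bind Lgr receptors and strengthen the signal. β-catenin then enters the nucleus and binds TCF/LEF factors at target genes, among them Axin2 and Lgr5. Pericentral hepatocytes make glutamine from ammonia and carry much of the cytochrome P450 metabolism. Glul, Axin2 and Lgr5 are known for expression in hepatocytes next to the central vein, while Cyp2e1 is expressed over a wider zone. In whole liver, openness in fewer cells and less openness per cell cannot be told apart.

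Every one of the 8 genes had a transcription start site (TSS) inside a Benzonase hotspot and inside a Cyanase hotspot, and 7 had one inside a DNase I hotspot, the exception being Rhbg. Over all protein-coding genes, a TSS was covered at 58.1% by Benzonase, 56.5% by Cyanase and 48.2% by DNase I, and all 3 nucleases covered a TSS at 46.9%, against 7 of the 8 genes here. Coverage by Benzonase and Cyanase without DNase I, as at Rhbg, was found at 8.70% of genes. For Rhbg and Slc1a2 the covered TSS belonged to an internal transcript, and when only the 5′ end of the gene body was scored, 6 of the 8 genes were marked in each list. The share of all protein-coding genes under this stricter scoring was not computed, so this count has no genome value beside it.

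Regions marked by DNase I alone lay away from the TSS, as most of them did in the genome. Hotspots that overlapped were merged into regions, and the 8 windows held 59 regions of 94491 in the genome. A region was called common when DNase I and at least 1 of the other nucleases marked it, and this held for 29 regions around the 8 genes (49.2%) against 45.4% in the genome. DNase I unique regions numbered 21 (35.6%, against 28.3% in the genome), and Benzonase-Cyanase unique regions, marked without DNase I, numbered 9 (15.3%, against 26.3%). The last count rose to 16 when hotspots had to overlap by 50% of each, a setting under which the genome share was not computed. Slc1a2 held 8 of the DNase I unique regions, Lgr5 5 and Oat 4, whereas Axin2 held 4 of the Benzonase-Cyanase unique ones. Of the 10 regions over a TSS of the 8 genes none was DNase I unique, against 2.60% of the regions over a TSS of any protein-coding gene. Of the 28 other regions inside the bodies of the 8 genes 14 were DNase I unique, against 32.4% of such regions in all protein-coding genes. Most of these 14 lay in Slc1a2 and Lgr5, the longest of the genes (132 and 137 kb), and the rest in Oat and Axin2. Outside Slc1a2 and Lgr5, most regions inside gene bodies were not DNase I unique, so the pooled count describes mainly these 2 genes.

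**Figure D1:**
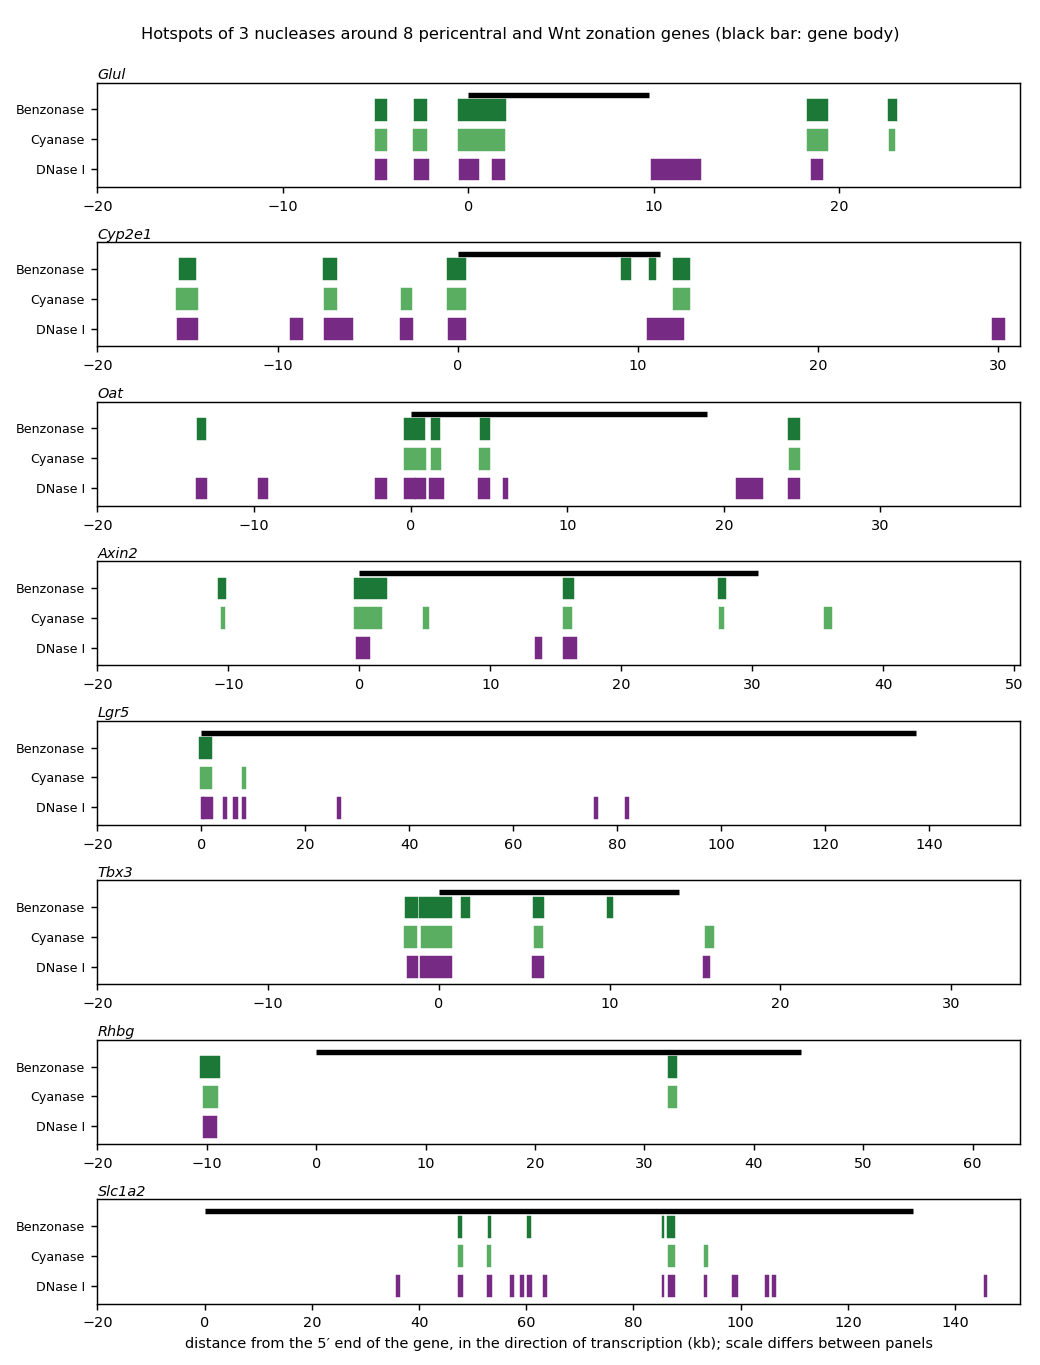
Hotspots of Benzonase (dark green), Cyanase (light green) and DNase I (purple) in the windows of the 8 genes, drawn against the distance from the 5′ end of the gene in kb, with the gene body as a black bar and a separate scale for each panel. All 3 lists mark a TSS at 7 of the genes, DNase I alone marks 5 regions inside Lgr5 and 8 around Slc1a2, and the TSS of Rhbg-001 has no DNase I hotspot.

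Hotspot density ranged widely among the 8 genes. Per 100 kb of window, DNase I hotspots ranged from 1.19 at Rhbg to 17.0 at Oat, Benzonase hotspots from 0.563 at Lgr5 to 11.7 at Cyp2e1, and Cyanase hotspots from 1.13 at Lgr5 to 9.76 at Cyp2e1 and slightly more at Glul. The medians over the 8 genes were 7.08 for Benzonase, 7.09 for Cyanase and 7.77 for DNase I, beside medians over all protein-coding genes of 3.84, 3.61 and 4.24. Glul and Cyp2e1 stood above the upper quartile of all genes in every list (7.34, 7.06 and 8.17). Rhbg stood between the quartiles for Benzonase and Cyanase and below the lower quartile for DNase I (1.41).

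**Figure D2:**
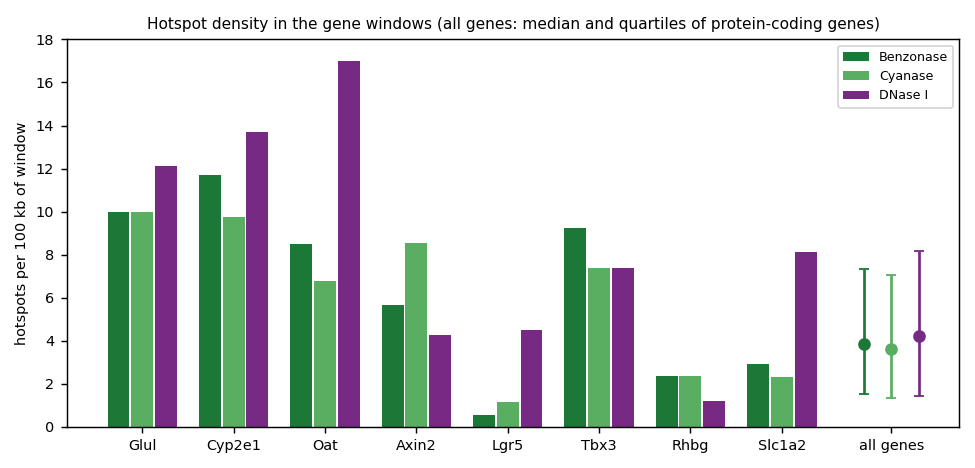
Hotspots per 100 kb of window for the 8 genes in each list (bars), beside the median (points) and quartiles (lines) over 22367 protein-coding genes. Oat reaches 17.0 with DNase I against 8.49 with Benzonase and 6.79 with Cyanase, and Lgr5 4.51 with DNase I against 0.563 and 1.13.

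Lgr5, the receptor for R-spondins, had few hotspots in the Benzonase and Cyanase lists and more in the DNase I list. The gene (ENSMUSG00000020140.9, chr10:114887367-115024836, minus strand) spans 137 kb, and its window held 1 Benzonase, 2 Cyanase and 8 DNase I hotspots. At the TSS, Benzonase marked chr10:115023071-115025265 and Cyanase chr10:115023013-115025162, both continuous over 2195 and 2150 bp. DNase I marked the same place with a 362 bp hotspot over the TSS (chr10:115024534-115024895) and a 1687 bp hotspot just inside the gene (chr10:115022773-115024459), with 74 bp between them. The promoter of Lgr5 was therefore marked by every list, but in DNase I it was split, and the piece over the TSS stood at percentile 0.725 of the DNase I widths over genes marked by all 3 lists.

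The other Lgr5 regions lay in introns. DNase I alone marked 3 places in intron 1 (chr10:114998111-114998674, chr10:115018057-115018833 and chr10:115020042-115020676) and 2 in intron 2 (chr10:114942826-114943363 and chr10:114948704-114949331). Cyanase joined DNase I at 1 place in intron 1, chr10:115016498-115017120, where Benzonase had no hotspot. The second of the intron 2 regions carried the letters CTTTGAT, a form of the TCF/LEF recognition sequence, on each strand, and its central 300 bp are shown for that reason, as the plus strand of mm9 with the matches in capitals (ATCAAAG is the reverse complement).
Lgr5 intron 2, chr10:114948868-114949167: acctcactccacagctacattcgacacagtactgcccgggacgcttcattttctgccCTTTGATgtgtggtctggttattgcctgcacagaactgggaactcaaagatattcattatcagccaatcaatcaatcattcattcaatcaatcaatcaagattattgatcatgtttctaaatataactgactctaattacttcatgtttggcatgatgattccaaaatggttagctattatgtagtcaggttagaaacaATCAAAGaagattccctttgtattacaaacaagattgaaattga

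Axin2, a scaffold of the β-catenin destruction complex that Wnt signalling itself switches on, showed the opposite balance. The gene (ENSMUSG00000000142.9, chr11:108781663-108812097, plus strand) had 4 Benzonase, 6 Cyanase and 3 DNase I hotspots. Benzonase and Cyanase marked the TSS with wide hotspots, chr11:108781274-108783715 (2442 bp) and chr11:108781240-108783333 (2094 bp), and DNase I with chr11:108781369-108782354 (986 bp). The DNase I hotspot covered the TSSs of Axin2-001 and Axin2-005 but ended before those of Axin2-006 (108782650) and Axin2-004 (108782962), which the other lists covered. The 1490 bp of the region without DNase I had a GC content of 67.1%, and the 986 bp with DNase I 67.0%.

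Beyond its TSS, Axin2 shared 1 place among all lists, in intron 3 (chr11:108797190-108798232, with 810 bp in Benzonase, 620 bp in Cyanase and 1004 bp in DNase I). Benzonase and Cyanase together marked chr11:108770861-108771395 upstream and chr11:108809070-108809591 in intron 10. Cyanase alone marked chr11:108786534-108786890 in intron 2 and chr11:108817093-108817663 past the 3′ end, and DNase I alone chr11:108795093-108795491 in intron 3. Both TCF/LEF forms searched, CTTTGAT and CTTTGAA, stood close together in the first intron, at 108782546-108782552 and 108782566-108782572, in the stretch that Benzonase and Cyanase marked and DNase I did not.
Axin2 intron 1, chr11:108782508-108782627: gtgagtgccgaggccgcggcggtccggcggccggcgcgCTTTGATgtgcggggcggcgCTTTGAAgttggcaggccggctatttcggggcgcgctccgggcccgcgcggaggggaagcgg

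Tbx3, a T-box repressor that is a β-catenin target in liver, was marked almost alike by the lists at its promoter. The gene (ENSMUSG00000018604.11, chr5:120120678-120134733, plus strand) had 5 Benzonase, 4 Cyanase and 4 DNase I hotspots. The TSS hotspots, which also covered the TSS of Gm2301, were 1856 bp with Benzonase (chr5:120119536-120121391), 1748 bp with Cyanase (chr5:120119618-120121365) and 1794 bp with DNase I (chr5:120119590-120121383). At the 5′ side the Cyanase bound lay 82 bp and the DNase I bound 54 bp inside the Benzonase one. Tbx3 and Slc1a2 were the genes here whose widest DNase I hotspot over a TSS was not narrower than the Cyanase one.

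The lists also shared an upstream region of Tbx3 (chr5:120118618-120119428) and a region of intron 3 (chr5:120126160-120126796). Benzonase alone marked chr5:120121994-120122441 and a 257 bp stretch over the TSS of a short transcript that starts at 120130760 (chr5:120130548-120130804, GC content 71.2%). No region around Tbx3 was DNase I unique. The intron 3 region held the single TCF/LEF type match at this gene, a CTTTGAA, shown in capitals on the plus strand.
Tbx3 intron 3, chr5:120126328-120126627: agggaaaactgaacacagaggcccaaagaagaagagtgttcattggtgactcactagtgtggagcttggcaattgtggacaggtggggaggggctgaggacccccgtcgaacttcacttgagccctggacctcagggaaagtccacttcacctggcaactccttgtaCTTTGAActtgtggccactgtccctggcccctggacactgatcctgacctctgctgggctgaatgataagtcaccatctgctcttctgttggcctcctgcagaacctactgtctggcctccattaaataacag

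**Figure D3:**
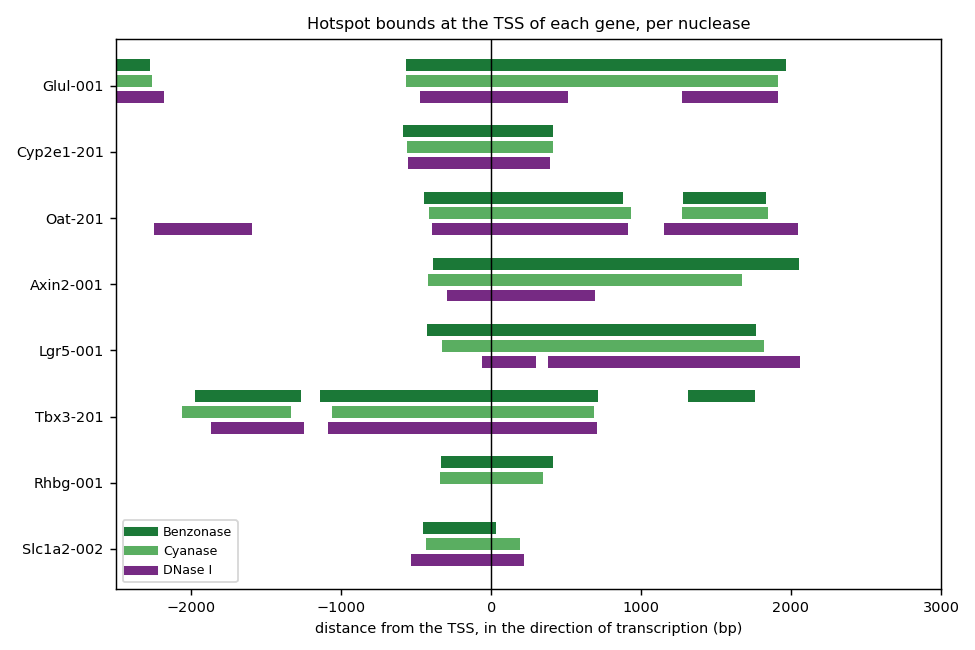
Bounds of the hotspots of each list around 1 TSS of each gene, with the distance from the TSS in bp in the direction of transcription. Benzonase and Cyanase are continuous over the TSS of Glul, Axin2 and Lgr5 (2094 to 2542 bp) where the DNase I hotspot over the TSS is 362 to 988 bp, the 3 lists nearly coincide at Cyp2e1 and Tbx3, and Rhbg-001 lacks DNase I.

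Glul, glutamine synthetase, had 5 Benzonase, 5 Cyanase and 6 DNase I hotspots (ENSMUSG00000026473.9, chr1:155747074-155756853, plus strand). Benzonase marked the start of the gene with a 2542 bp hotspot (chr1:155746503-155749044) and Cyanase with a 2485 bp one (chr1:155746504-155748988). DNase I marked it with 2, chr1:155746601-155747588 and chr1:155748348-155748985, leaving 759 bp unmarked between them. These 759 bp had a GC content of 58.9% and held the TSSs of Glul-005 (155747736) and Glul-002 (155748246), so DNase I covered the TSS of Glul-001 but not these. The TSS of 5830403L16Rik also lay inside the region.

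Upstream of Glul, the lists coincided closely at chr1:155742068-155742650 (575 bp in Benzonase, 583 bp in Cyanase, 547 bp in DNase I) and at chr1:155744086-155744892 (635, 726 and 752 bp, in the same order). Downstream, all 3 marked chr1:155765339-155766451, with 1054 and 1113 bp in Benzonase and Cyanase and 589 bp in DNase I, and Benzonase and Cyanase without DNase I marked chr1:155769737-155770149. The upstream region at chr1:155744086-155744892 held a CTTTGAT on the minus strand at -2589 bp from the 5′ end of the gene, and is shown because it was the match nearest upstream of Glul in a region of all 3 lists.
Glul upstream, chr1:155744339-155744638: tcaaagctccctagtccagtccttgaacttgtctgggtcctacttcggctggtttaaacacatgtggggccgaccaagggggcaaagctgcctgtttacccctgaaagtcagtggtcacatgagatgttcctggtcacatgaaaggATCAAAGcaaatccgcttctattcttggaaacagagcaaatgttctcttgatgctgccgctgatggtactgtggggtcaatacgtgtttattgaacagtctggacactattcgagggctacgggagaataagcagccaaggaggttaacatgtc

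The widest DNase I unique region of the 8 windows lay at the 3′ end of Glul. It began 72 bp past the end of the gene, ran over chr1:155756925-155759590 (2666 bp), and overlapped the annotations A930039A15Rik and Gm11074. Neither Benzonase nor Cyanase had a hotspot in it. Among 26719 DNase I unique regions of the genome it was the third widest, with 3 regions (0.0112%, itself included) at least as wide.

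Oat, the mitochondrial ornithine aminotransferase, had a second such region. The gene (ENSMUSG00000030934.8, chr7:139749158-139768081, minus strand) had 5 Benzonase, 4 Cyanase and 10 DNase I hotspots, and DNase I alone marked chr7:139745631-139747333 (1703 bp), 1825 bp past its 3′ end. In the genome 21 DNase I unique regions (0.0786%) were at least as wide. The other 19 DNase I unique regions around the 8 genes were 269 to 887 bp wide. A region that held DNase I lay within 2 kb of the 3′ end at 4 of the 8 genes (Glul, Cyp2e1, Oat and Tbx3) against 19.3% of all genes, and a DNase I unique one at Glul and Oat, 2 of the 8, against 5.54%. The 2 kb limit was chosen after the regions at Glul and Oat had been seen, so these counts only describe them.

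**Figure D4:**
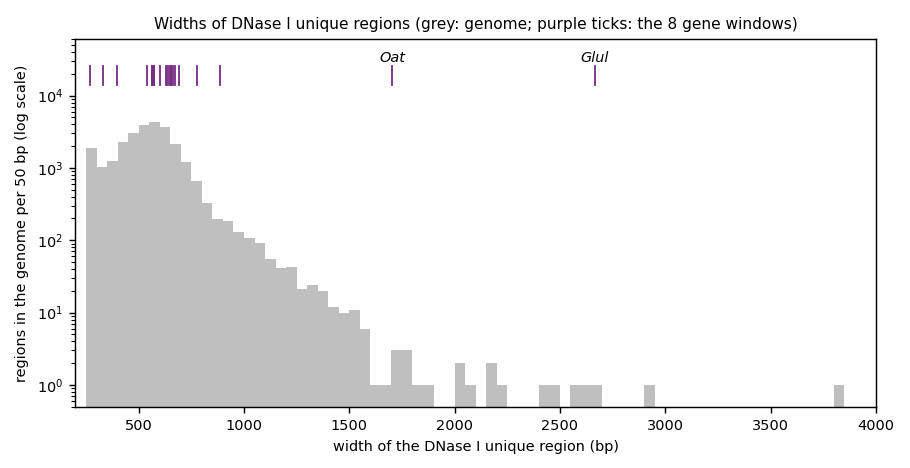
Widths of the 26719 DNase I unique regions of the genome (grey, regions per 50 bp, log axis) and of the 21 in the windows of the 8 genes (purple ticks). The regions past the 3′ ends of Oat (1703 bp) and Glul (2666 bp) lie in the far right tail, and the other 19 are 269 to 887 bp wide.

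At the TSS of Oat, Benzonase marked chr7:139767204-139768528 (1325 bp) and Cyanase chr7:139767147-139768499 (1353 bp), while DNase I marked nearly the same span with a pair of adjoining hotspots, chr7:139767169-139767794 and chr7:139767794-139768473. In intron 1 all 3 lists marked chr7:139763056-139763773 and chr7:139766035-139766931. DNase I alone marked chr7:139761936-139762204 in intron 1, and chr7:139769679-139770331 and chr7:139777271-139777834 upstream. Every region of the Oat window also overlapped the annotated span of Fgfr2, and their place among its exons and introns was not examined. The region nearest upstream of Oat held CTTTGAT (position -1923 bp from the TSS) and is shown as a DNase I unique region with a match.
Oat upstream, chr7:139769855-139770154: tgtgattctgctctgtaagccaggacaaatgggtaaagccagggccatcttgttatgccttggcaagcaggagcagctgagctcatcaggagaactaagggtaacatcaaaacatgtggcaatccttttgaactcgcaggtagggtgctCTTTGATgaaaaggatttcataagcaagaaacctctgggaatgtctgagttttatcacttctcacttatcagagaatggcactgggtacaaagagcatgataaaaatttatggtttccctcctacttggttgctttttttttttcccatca

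Rhbg, an ammonium transporter of pericentral hepatocytes, was the gene with the fewest DNase I hotspots. The gene (ENSMUSG00000001417.4, chr3:88046796-88091132, minus strand) had 2 Benzonase, 2 Cyanase and 1 DNase I hotspot in its window. Benzonase (chr3:88058219-88058968, 750 bp) and Cyanase (chr3:88058284-88058970, 687 bp) marked the TSS of Rhbg-001 at 88058631, and DNase I did not. The far 5′ end at 88091132, where Rhbg-002 and Rhbg-003 start, had no hotspot of any list. The DNase I hotspot of the window, chr3:88100256-88101481, lay outside the gene at the TSSs of Cct3 and 1700021C14Rik, where Benzonase (chr3:88100053-88101736) and Cyanase (chr3:88100237-88101521) also had hotspots.

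The Rhbg-001 region held none of the motifs searched. The part of its centre before the TSS is shown because this gene had no TSS marked by DNase I; it held 69.9% G and C, and the flanks of 5 kb around the region 48.5%.
Rhbg upstream of the TSS, chr3:88058632-88058744: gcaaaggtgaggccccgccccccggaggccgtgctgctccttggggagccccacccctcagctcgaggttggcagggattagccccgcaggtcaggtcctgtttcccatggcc

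Slc1a2, the glutamate transporter GLT-1, was marked inside the gene and not at its far 5′ end. The gene (ENSMUSG00000005089.8, chr2:102498816-102630941, plus strand, 132 kb) had 5 Benzonase, 4 Cyanase and 14 DNase I hotspots. The outermost TSSs, from 102498816 to 102499438, lay in CpG-rich sequence (GC content 62.4%, observed to expected CpG 0.810) and had no hotspot of any list. Of 4286 protein-coding genes whose 5′ end had at least 60% GC and a CpG ratio of at least 0.75 within 500 bp, 332 (7.75%) likewise lacked a hotspot; these limits were set after the Slc1a2 start had been seen.

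All 3 lists marked the internal TSSs at 102546513 and 102546595, where Slc1a2-011, Slc1a2-002 and Slc1a2-003 start. Benzonase had chr2:102546138-102546628, Cyanase chr2:102546160-102546788 and DNase I chr2:102546062-102546812 (751 bp), so DNase I was the widest there. Benzonase and DNase I, but not Cyanase, marked the internal TSS of Slc1a2-009 at 102559131 (chr2:102558929-102559448 and chr2:102558960-102559626). Around these starts, DNase I alone marked chr2:102534471-102535113, chr2:102555760-102556422, chr2:102557608-102558207 and chr2:102561991-102562564, all in intron 1.

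Farther into Slc1a2, all 3 lists marked chr2:102585157-102586392 in intron 5, with 1178, 1124 and 1191 bp in Benzonase, Cyanase and DNase I. DNase I alone marked chr2:102597263-102598149 in intron 7, chr2:102603284-102603955 and chr2:102604701-102605273 in intron 8, and chr2:102644268-102644599 downstream. CTTTGAT was found in 6 of the 14 Slc1a2 regions. The internal promoter and a DNase I unique region of intron 1 are shown as examples, the first up to the start of Slc1a2-011.
Slc1a2 internal promoter, chr2:102546287-102546512: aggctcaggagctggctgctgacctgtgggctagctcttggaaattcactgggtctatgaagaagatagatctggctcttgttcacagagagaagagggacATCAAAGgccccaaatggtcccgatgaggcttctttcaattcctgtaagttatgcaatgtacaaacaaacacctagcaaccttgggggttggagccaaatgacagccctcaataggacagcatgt
Slc1a2 intron 1, chr2:102555941-102556240: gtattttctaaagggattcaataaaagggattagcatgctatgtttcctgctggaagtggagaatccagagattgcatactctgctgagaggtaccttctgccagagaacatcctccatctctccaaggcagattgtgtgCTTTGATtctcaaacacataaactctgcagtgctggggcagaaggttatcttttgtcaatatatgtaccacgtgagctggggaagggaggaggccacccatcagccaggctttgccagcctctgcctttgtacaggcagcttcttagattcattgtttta

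Cyp2e1, a cytochrome P450 that oxidises ethanol and acetaminophen, had 6 Benzonase, 5 Cyanase and 7 DNase I hotspots (ENSMUSG00000025479.7, chr7:147949638-147960874, plus strand). At its TSS the lists nearly coincided, with chr7:147949048-147950049 in Benzonase (1002 bp), chr7:147949076-147950048 in Cyanase (973 bp) and chr7:147949081-147950028 in DNase I (948 bp). Upstream, all 3 marked chr7:147934023-147935184 and chr7:147942163-147943781, and at the latter DNase I was wider (1543 bp) than Benzonase (727 bp) and Cyanase (720 bp). Cyanase and DNase I marked chr7:147946443-147947106 without Benzonase.

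The 3′ end of Cyp2e1 also had a wide DNase I hotspot, of 2012 bp within chr7:147960163-147962486, which reached from intron 8 past the last exon. Unlike at Glul and Oat, Benzonase marked it too, with hotspots of 373 and 889 bp, and Cyanase with 1 of 868 bp. Benzonase alone marked chr7:147958700-147959199 over exon 7, and DNase I alone chr7:147940341-147940992 upstream and chr7:147979286-147979976 downstream. The promoter is shown up to the TSS, with the CTTTGAA that lay at -55 bp from it.
Cyp2e1 promoter, chr7:147949399-147949637: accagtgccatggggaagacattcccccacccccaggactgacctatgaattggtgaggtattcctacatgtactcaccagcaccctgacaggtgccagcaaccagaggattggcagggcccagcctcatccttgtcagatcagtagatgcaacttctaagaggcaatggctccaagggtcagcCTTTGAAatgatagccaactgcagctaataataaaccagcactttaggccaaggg

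Over all 8 windows, hotspot widths had similar medians in the lists, 635 bp with Benzonase (quartiles 520 and 1002), 654 bp with Cyanase (546 and 1115) and 659 bp with DNase I (589 and 897), close to the medians of the whole lists (652, 641 and 649 bp). Hotspots of at least 1500 bp, a limit chosen after the widths had been seen, made up 5 of 33, 4 of 32 and 6 of 53, or 15.2%, 12.5% and 11.3%, against 8.25%, 6.92% and 3.01% of the whole lists. The wide Benzonase and Cyanase hotspots all covered a TSS of a member or neighbouring gene, most wide DNase I ones did not, and the windows were placed around genes. In regions away from member TSSs the median widths were 575 bp (Benzonase), 580 bp (Cyanase) and 648 bp (DNase I). At the TSS the widest single hotspots differed more between the lists. The widest DNase I hotspot over a TSS was narrower than the Benzonase one at Glul, Cyp2e1, Oat, Axin2, Lgr5 and Tbx3 and wider at Slc1a2, and over the 10480 genes marked by all 3 lists it was narrower at 88.2%, with medians of 1330 bp (Benzonase), 1230 bp (Cyanase) and 872 bp (DNase I). This measure takes 1 piece where DNase I was split, as at Glul, Oat and Lgr5. Summed over the region, DNase I covered 1306 bp at Oat and 2049 bp at Lgr5, near the 1325 and 2195 bp of Benzonase. At Glul it covered 1626 bp against 2542 bp. Splits among the 10480 genes were not counted.

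Bounds could be compared directly at the 18 regions where each list had a single hotspot. Cyanase and Benzonase bounds differed by a median of 36.0 bp, DNase I and Benzonase by 76.0 bp and DNase I and Cyanase by 48.5 bp, beside 33.0, 71.0 and 70.0 bp over 33922 such regions of the genome. DNase I hotspots were wider than Benzonase ones at 10 of the 18 and narrower at 8, while in the genome they were wider at 15905 and narrower at 17942 of the 33922. The largest difference was the 3′ bound at the Axin2 TSS, where DNase I ended 1361 bp before Benzonase.

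GC content followed the class of a region around the 8 genes as it did in the genome. Common regions had a mean of 49.1% ± 6.68 (SD over 29 regions; 49.5% ± 6.87 in the genome), DNase I unique regions 43.2% ± 5.19 (21 regions; 42.3% ± 5.21), and Benzonase-Cyanase unique regions 57.4% ± 7.06 (9 regions; 54.7% ± 6.52). The DNase I unique and Benzonase-Cyanase unique groups overlapped in part. Regions of 1 window share their surroundings and are not replicates. Within TSS regions, the part without DNase I was mostly not the richer in GC. Around the 8 genes this part lay mostly at the margins of the region. Exceptions were the gaps between DNase I hotspots at Glul and Lgr5, and Axin2, where the 1490 bp without DNase I held the centre of the region. In common regions of the genome the mean GC content was 52.8% in the central 150 bp against 49.5% over the whole region. Position was not held equal between the parts, so nuclease and position within the region cannot be told apart in this comparison. Over 8494 TSS regions of the genome in which the parts with and without DNase I were each at least 100 bp, the part without DNase I was the richer in GC at 30.7%. Around the 8 genes, the parts with and without DNase I were nearly equal at Glul (58.3% and 58.2%, the latter over 916 bp) and Axin2, and the part without DNase I was higher at Lgr5 (60.4% over 444 bp, against 55.9%). At the other TSSs marked by DNase I that part was under 100 bp, and it was lower than the DNase I part at Oat (37.7% over 77 bp, against 56.7%), Tbx3 (38.7% over 62 bp, against 60.3%) and the TSS of Slc1a2-009 (38.7% over 31 bp, against 47.8%) and higher at Cyp2e1 (48.1% over 54 bp, against 45.7%).

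**Figure D5:**
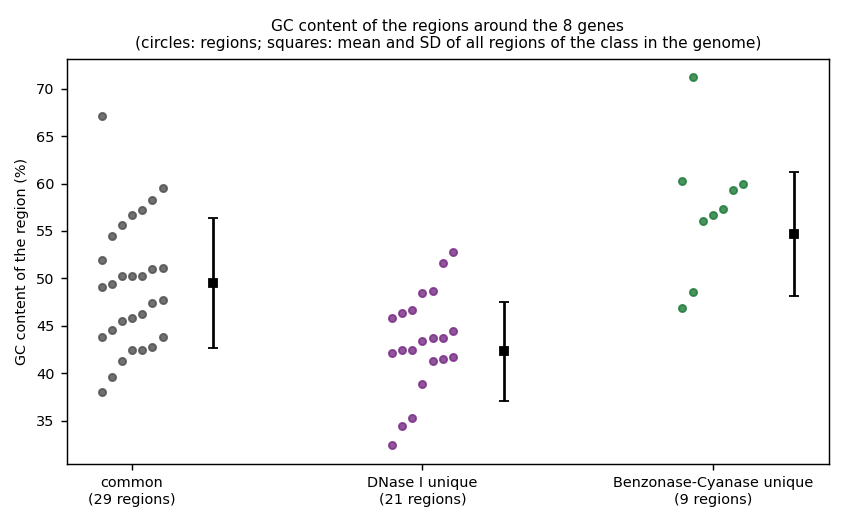
GC content in percent of each region around the 8 genes (circles), by class, beside the mean and SD of all regions of that class in the genome (squares and lines). DNase I unique regions average 43.2%, common regions 49.1% and Benzonase-Cyanase unique regions 57.4%.

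The TCF/LEF letters CTTTGAT were found on either strand in the central 300 bp of 10 of the 59 regions (16.9%), against 5.14% of all regions of the genome. CTTTGAA was found in 6 (10.2%, against 6.68%), and at least 1 of these letter runs in 15 (25.4%, against 11.4%). By class, CTTTGAT was in 5 of 29 common regions, 5 of 21 DNase I unique regions and 0 of 9 Benzonase-Cyanase unique regions, with 4.81%, 7.91% and 2.74% in the genome. CTTTGAA was in 5, 1 and 0 regions of these classes, with 6.62%, 10.3% and 2.92% in the genome. Slc1a2 held 6 of the 10 regions, Glul, Oat, Axin2 and Lgr5 held 1 each, and Cyp2e1, Tbx3 and Rhbg held none. The HNF4 type letters CAAAGGTCA were in 1 region, upstream of Oat, and CAAAGTCCA in none (1.67% and 1.55% in the genome); the reverse complement of CTTTGAT shares the run CAAAG with them. A match is a run of letters and not a measured binding site.

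Among 38 other genes of the Wnt pathway, a TSS lay in a Benzonase hotspot at 36, a Cyanase hotspot at 34 and a DNase I hotspot at 27. These are 94.7%, 89.5% and 71.1%, against 58.1%, 56.5% and 48.2% of all genes, so the Wnt genes were marked more often in every list. The shares in the next sentence are over all genes of each set, marked or not, and are not rates among marked genes. The 7 with Benzonase and Cyanase but not DNase I (18.4%, against 8.70% of all genes) were the ligands Wnt2 and Wnt9b, the R-spondin Rspo3, the receptor Fzd6, the co-receptor Lrp6, and the inhibitors Nkd1 and Notum. Counted only among genes with a Benzonase hotspot over a TSS, they were 7 of 36, beside 1947 of 13002 over all protein-coding genes, a smaller contrast. Benzonase alone marked Bcl9l and Pygo1, which assist β-catenin in the nucleus, and no list marked a TSS of Lef1, a TCF/LEF factor, or Dkk3. Wnt9b falls outside the naming rule of 10 genes per list and was added so that the 7 are complete.

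In the other zonation lists the 3 nucleases gave equal counts. Of 18 further pericentral genes 17 had a TSS marked in each list, the exception being the cation transporter Slc22a3, and of 20 periportal genes 19, the exception being Apof, an apolipoprotein. The Wnt ligands and Rspo3 are made by liver cells other than hepatocytes, and markers of such cells also differed between the lists. All 5 hepatocyte markers were marked in every list. Kupffer cell markers were marked at 1, 1 and 4 of 4 (Benzonase, Cyanase and DNase I), sinusoidal endothelial markers at 2, 2 and 1 of 4, stellate cell markers at 2, 3 and 0 of 3, and cholangiocyte markers at 1, 0 and 0 of 3. Neuron and skeletal muscle markers were at 0 of 3 in each list. The part of these cells in the counts was not tested.

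The window limit left few hotspots in doubt. The farthest hotspot inside was that of DNase I at chr7:147979286-147979976, 18412 bp from Cyp2e1, and the nearest outside was that of DNase I at chr11:108758305-108758839, 22824 bp from Axin2. Tag numbers were not part of the lists, so the depth behind a hotspot is unknown and a place without a hotspot may hold cleavage below the calling threshold.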

How the data were processed

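Accessible chromatin was mapped in mouse liver with Benzonase, Cyanase or DNase I. Eland or Bowtie served the authors for alignment to mm9. Per nuclease they combined all tags, then kept hotspots at an FDR of 0% whose tag density exceeded the mode. Whether this last step was applied to the deposited lists is not given in the sources used here. Each deposited list (60910 Benzonase, 57675 Cyanase and 72286 DNase I hotspots) is longer than the number the paper reports for the pooled tags of that nuclease. The sets and classes compared here are therefore not those of the paper. The 3 deposited lists are described in their headers as unmerged and adjusted for input, and the track line of the DNase I list names 2 pooled libraries. They hold positions only (chromosome, start and end), with 0 columns of other samples.

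Positions were compared with GENCODE release M1 on the same build (NCBIM37), and printed coordinates count from 1. Hotspots that overlapped by 1 bp or more were merged into regions. A gene was scored at the TSS of any annotated transcript. Widths, bounds, GC content and motifs in the central 300 bp were set beside those of all genes or regions. Printed sequences are the longest stretch of that centre without untranslated or coding exon. Python 3.11.15, numpy 2.4.6, pysam 0.24.0, samtools 1.23.1 and matplotlib 3.10.9 were used, and counting and merging were tested on simulated lists.

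The 8 genes and the gene lists were chosen with earlier results of these data known. All 8 genes are named; of the other Wnt, pericentral and periportal genes, those whose TSS call differed between nucleases or was absent are named, up to 10 per list, and cell type markers are counted only. Alternatives were flanks of 10 and 50 kb, leaving out narrow hotspots, joining hotspots within 150 bp, an overlap of 50%, other TSS definitions and the central 150 bp for GC content. Tags of single concentrations were not analysed here.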

Additional observations from a re-analysis of the deposited data

How the results depend on the processing

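Under the alternatives, 49 recomputed values stayed within 1.5 times the reported value, or within 1 SD for GC content, 2 moved further and 0 reversed. All were counts, widths, absolute differences or GC contents, which cannot change sign, so the absence of reversals carries no information. The order of the median widths did change. With flanks of 10 kb they were 674 bp (Benzonase), 678 bp (Cyanase) and 659 bp (DNase I), so DNase I went from the highest to the lowest. Common regions rose from 29 to 44 with flanks of 50 kb, since the windows were longer. Benzonase-Cyanase unique regions rose from 9 to 16 when overlaps had to reach 50% of each hotspot, under which hotspots of unequal width no longer matched. DNase I unique regions ranged from 19 to 29. No replicate could be left out. No paired analysis was possible because each nuclease was deposited as 1 list of pooled tags. Depth per hotspot is unknown, so a missing hotspot is not evidence of closed chromatin.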
